A study of Mus musculus with 6 samples.

Results

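The genes described here encode actin-binding proteins of 11 subfamilies: the unconventional myosins (Myo), tropomyosins (Tpm), alpha-actinins (Actn), subunits of the Arp2/3 complex (Arpc), filamins (Fln), formins (Fmn, Fmnl and Daam), cofilins (Cfl), profilins (Pfn), coronins (Coro), plastins (Lcp1 and Pls), and gelsolin with CapG. The rule reads gene symbols and uses no measured value, and 65 of the 24421 listed genes carried such a symbol. Of these, 62 averaged 1 or more normalized counts across the 6 libraries and were tested, among 18413 genes tested in all. Myo3a, Myo7b and Pfn3 were at 0 in all 6 libraries and were not tested. No listed gene carried a Diaph symbol, so the Diaph formins were not analysed here.

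Actin filaments give a cell its shape, and actin-binding proteins decide where filaments start, how fast they grow, how they are bundled and when they are cut. The Arp2/3 complex starts branched networks, as in the ruffles and phagocytic cups of motile cells, while formins nucleate and extend unbranched filaments. Profilins load actin monomers for growth, cofilins and gelsolin sever filaments, coronins act with Arp2/3 and cofilin on older networks, and plastins, alpha-actinins and filamins link filaments together. Tropomyosins coat filaments and set which myosins and severing proteins can bind, and the myosins are the motors that pull on them. In astrocytes, actin fills the fine peripheral processes that wrap synapses. Nearly every subfamily has several paralogs with different homes: Lcp1, Coro1a, Myo1f, Myo1g, Myo9b and Fmnl1 are best known from blood-derived cells and macrophages, and Pfn2, Fmn2 and Actn2 from neural or muscle tissue.

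The study asked what loss of the transcription factor Sox9 does to the transcriptome of astrocytes in the olfactory bulb. Both groups received the same virus, AAV-GFAP-iCre-P2a-TurboRFP, in which the GFAP promoter drives Cre recombinase and the red protein TurboRFP. The 3 Sox9 KO libraries came from Sox9fl/fl mice, in which Cre excises the floxed Sox9, and the 3 control libraries from C57BL/6J mice, called Sox9+/+ in the study's methods, in which Cre had no floxed allele to act on. The mice were adult males, bulbs were taken 4 weeks after injection, and TurboRFP-positive cells were sorted by FACS before bulk RNA-seq. Recombination was therefore limited to infected cells in which the GFAP promoter was active, the sort selected TurboRFP and not an astrocyte protein, and, although both groups are labelled C57BL/6, the floxed allele and the mouse line it came in cannot be told apart.

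Values are normalized counts, that is, reads divided by 1 size factor for each library, and 1 read was worth between 0.395 and 1.58 of them. The coding loci of 14 of the 65 members overlap another coding gene, and whether reads were counted by strand was not stated. Overlaps on either strand may therefore share reads, and only some of them are named below. Libraries held from 18242129 to 86906527 reads on genes. Sox9 had 5185, 6562 and 4921 normalized counts in the control libraries against 52.6, 64.4 and 57.7 in the KO libraries (log2 fold change -6.55, SE 0.15, limma adjusted p = 2.47e-09). The sorted cells are labelled as astrocytes. All 10 astrocyte markers checked were present in the control libraries, and all 10 were lower in KO, with a summed level of 491710 to 546447 in control and 35948 to 46361 in KO. Of 10 microglia and macrophage markers, 9 were higher in KO, with a sum of 154596 to 179313 in control and 512151 to 599667 in KO. Of 7 markers of border macrophages and monocytes, 2 were higher and 3 were lower, the lower ones being Lyve1, Pf4 and Cd163. Of 10 neuron markers, 9 were lower in KO, with a sum of 17788 to 24085 in control and 2683 to 4925 in KO. All 6 oligodendrocyte and all 4 oligodendrocyte precursor markers were also lower. Of 6 mural markers, 3 were lower and 3 not called, with a sum of 1590 to 1811 in control and 310 to 562 in KO. Of 6 endothelial markers, 2 were higher and 2 lower, and of 6 lymphocyte markers 1 was higher. No marker in these lists was at 0 in every library of a group. In bulk samples a smaller number of cells of one type and less RNA per cell cannot be told apart, which touches every value given here.

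The actin-binding protein genes split nearly evenly in direction. By the rule used throughout, a limma adjusted p under 0.05 with at least a 1.5-fold difference, 25 of the 62 tested members were higher in KO, 21 were lower and 16 were not called. The members called in either direction made up 74.2%, beside 51.0% of all genes tested. The share called higher was 40.3%, beside 22.2% of all genes, and the share called lower was 33.9%, beside 28.8%. In 28 members every KO library was above every control library, in 25 every KO library was below, and in 9 the groups overlapped, so that the groups did not overlap in 53 of 62 (85.5%), beside 67.2% of all genes tested. The median log2 fold change of the tested members was -0.06, and that of all genes tested was -0.07. Quantile normalization raised the median of all genes by 0.26, and setting libraries to the same total lowered it by 0.23, so that medians near 0 change sign with the scaling. Single members ran from -4.75 for Flnc to 2.06 for Fmnl3.

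The calls are given here by subfamily. In 7 of the 11, members were called in both directions, among them the myosins, tropomyosins, formins, profilins, coronins and plastins. The Arp2/3 subunits had members called higher and none called lower, while the alpha-actinins, the cofilins and the pair of gelsolin and CapG had members called lower and none called higher. Median log2 fold changes were highest in the coronins at 1.27, the Arp2/3 subunits at 0.91 and the formins at 0.73. They were lowest in the profilins at -2.64, the alpha-actinins at -1.40 and the plastins at -1.28. A median counts each gene once and does not give the level of a subfamily. Summed in normalized counts per kb of the longest annotated transcript, the plastins averaged 3219 in control and 8978 in KO. On the same scale the profilins had 2156 and 2274, the alpha-actinins 940 and 630, and the myosins 4547 and 6923. The subfamilies hold between 2 and 22 tested members and were not tested against each other. Of all genes tested, 22.2% were called higher and 28.8% lower. At these shares a small set can lack calls in 1 direction, or hold calls in both, without differing from other genes.

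**Figure D1:**
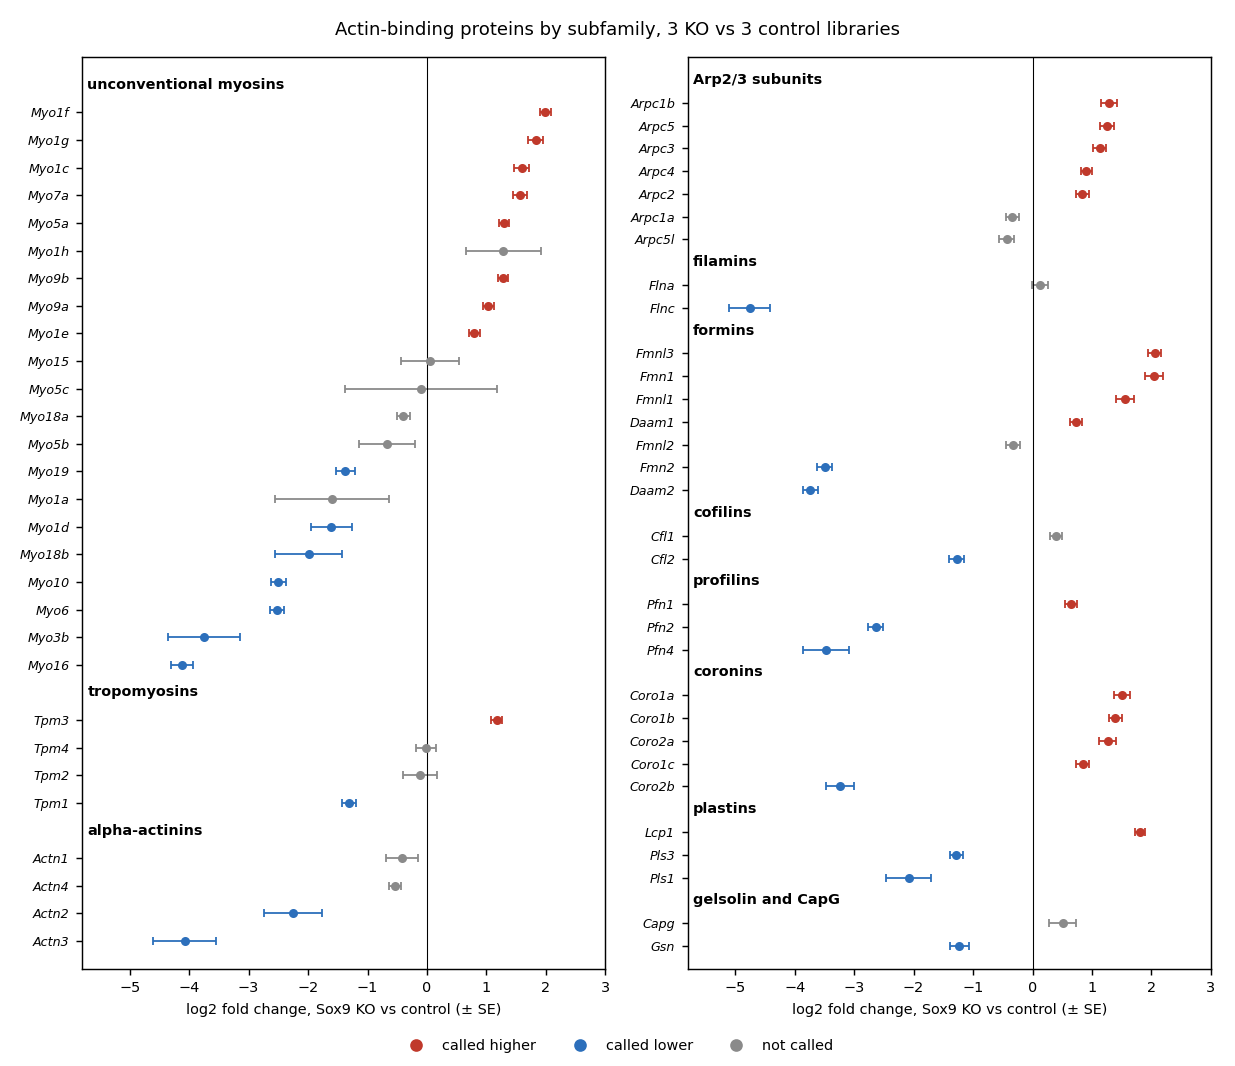
Log2 fold change in normalized counts, Sox9 KO vs control, for 60 of the 62 tested actin-binding protein genes, grouped by subfamily, with the standard error of the limma fit as the bar. Red points are members called higher (24), blue points members called lower (20) and grey points members not called (16), and in most subfamilies red and blue points stand side by side, with the blue points reaching farther from 0 (-4.75 for Flnc) than the red ones (2.06 for Fmnl3).

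Of the 7 subunits of the Arp2/3 complex, which starts branched filaments, 5 rose and 2 were not called. The core subunit Arpc2 had the highest level, with 5543, 7037 and 6653 normalized counts in control and 11887, 10429 and 12015 in KO (log2 fold change 0.84, SE 0.11, limma adjusted p = 7.03e-05). Its rise fell short of 1.5-fold under quantile normalization and when libraries were set to the same total without the ribosomal transcript Rn45s. Arpc3, Arpc4 and Arpc5 rose as well, by 1.13, 0.91 and 1.26 on the log2 scale, with Arpc4 also short of 1.5-fold under the second of these scalings. Arpc4 shares its strand and part of its locus with Ttll3, so its reads may be shared with that gene.

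The complex can be built with either of 2 versions of its ARPC1 subunit and either of 2 of its ARPC5 subunit, and in both cases the versions parted. Arpc1b, the form known from blood cells, had 3162, 4484 and 4163 normalized counts in control and 9622, 8756 and 10143 in KO (log2 fold change 1.29, SE 0.13, limma adjusted p = 1.07e-05). Arpc1a had 1274, 1441 and 1155 in control and 1076, 970.3 and 998 in KO, with every KO library below every control library but less than a 1.5-fold difference (log2 fold change -0.34, SE 0.11, limma adjusted p = 0.0227). Arpc5l likewise had 868, 1047 and 887 in control and 682, 620.2 and 767 in KO (log2 fold change -0.44, SE 0.13, limma adjusted p = 0.0123), again with no overlap and under 1.5-fold. The Arpc5l locus overlaps Wdr38 on the same strand and Rpl35 on the other. The loci of Arpc1a and Arpc1b overlap Kpna7 and Pdap1, each on the other strand. Arpc1a and Arpc5l passed both thresholds as lower at the same total without Rn45s, and Arpc5l also at the same total with it.

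Arpc1a and Arpc1b are neighbours on the same strand, at chr5:145083869-145108756 and chr5:145114256-145128186 in GRCm38.p6, with 5499 bases between them. Their upstream windows are printed here because these are adjacent copies with different values in the same libraries. Each is the 250 bases before the RefSeq start, 5′ to 3′ on the plus strand, at chr5:145083619-145083868 and chr5:145114006-145114255, with the CG dinucleotides in capitals.
Arpc1a: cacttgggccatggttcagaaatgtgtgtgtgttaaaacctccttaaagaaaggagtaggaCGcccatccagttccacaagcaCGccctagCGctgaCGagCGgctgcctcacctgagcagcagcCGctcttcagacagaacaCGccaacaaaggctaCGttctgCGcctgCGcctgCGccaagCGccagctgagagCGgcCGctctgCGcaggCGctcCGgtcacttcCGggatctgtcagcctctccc
Arpc1b: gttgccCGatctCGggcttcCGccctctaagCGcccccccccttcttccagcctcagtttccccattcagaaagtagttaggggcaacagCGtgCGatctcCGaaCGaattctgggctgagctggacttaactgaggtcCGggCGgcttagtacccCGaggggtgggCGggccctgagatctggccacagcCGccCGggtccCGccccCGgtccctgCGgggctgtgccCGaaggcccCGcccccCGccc
The Arpc1a window holds 18 CG dinucleotides and the Arpc1b window 20, beside a median of 6 over the same window of all 32851 RefSeq promoters.

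The 7 formins, which build unbranched filaments, moved farther apart than the Arp2/3 subunits, with 4 higher, 2 lower and 1 not called. Fmnl3, a formin-like protein linked to filopodia, had 1432, 1296 and 1459.6 normalized counts in control and 5873, 6514 and 5099.8 in KO (log2 fold change 2.06, SE 0.11, limma adjusted p = 1.04e-07). Fmn1 had 522, 721 and 634 in control and 2209, 2405 and 3149 in KO (log2 fold change 2.04, SE 0.16, limma adjusted p = 1.53e-06). The lowest KO library was 3.49 times the highest control library for Fmnl3 and 3.06 times for Fmn1.

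Fmnl1, the formin-like protein of leukocytes, had 1124, 922 and 777 normalized counts in control and 2861, 3093 and 2294 in KO (log2 fold change 1.55, SE 0.15, limma adjusted p = 9.33e-06). Fmnl1 did not overlap between the groups. Daam1, a formin downstream of Wnt and planar polarity signals, had 1860.3, 2099 and 2286 in control and 3637, 3238 and 3469.7 in KO (log2 fold change 0.73, SE 0.10, limma adjusted p = 1.15e-04), and fell short of 1.5-fold under quantile normalization and at the same total with or without Rn45s. The paralog Daam2 went the other way, with 4586, 4870.3 and 4762 in control and 299.8, 364 and 409 in KO (log2 fold change -3.74, SE 0.12, limma adjusted p = 9.23e-09). The spread of Daam2 among the libraries of a group was small beside its 13.3-fold difference.

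Fmn2, a formin of neurons and oocytes, had 5449, 3963 and 4246 normalized counts in control and 403, 379 and 413 in KO (log2 fold change -3.50, SE 0.13, limma adjusted p = 1.43e-08). Fmnl2, the formin with the highest mean normalized count, was not called, with 6899, 8340.1 and 8248 in control and 7141, 6078 and 5579.8 in KO and groups that overlapped (log2 fold change -0.32, SE 0.12, limma adjusted p = 0.0321). It passed as lower under quantile normalization and at the same total without Rn45s.

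**Figure D2:**
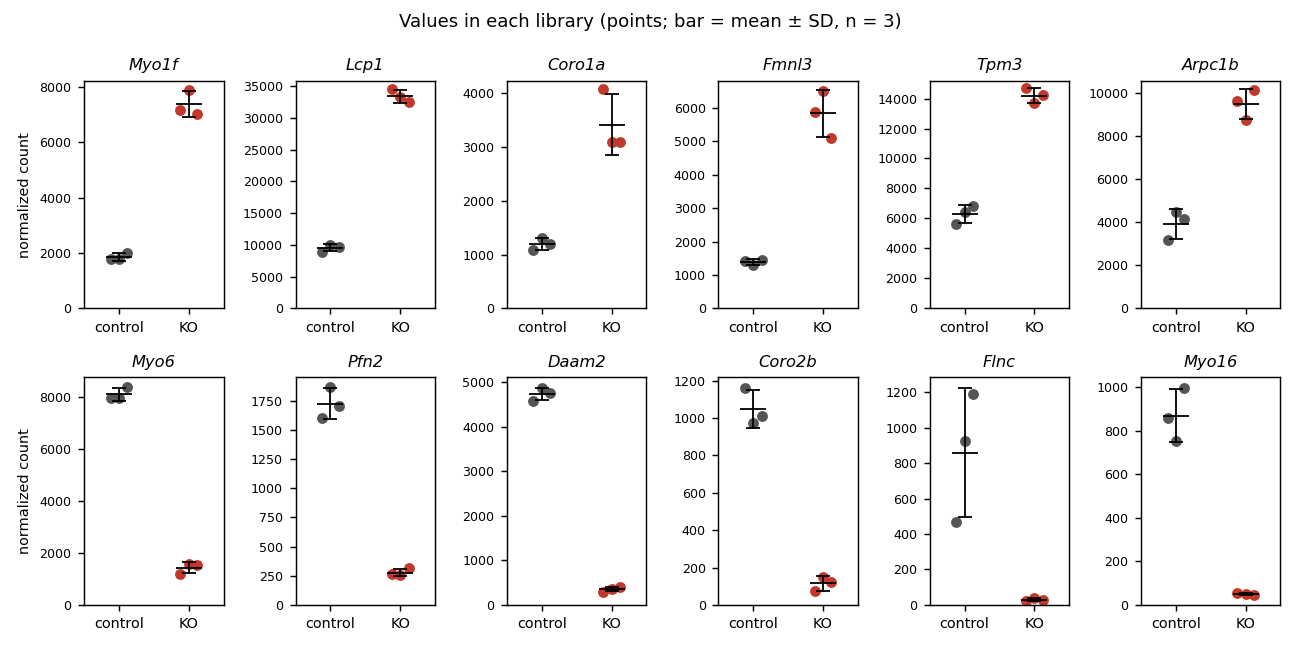
Normalized counts (vertical axis, starting at 0, with its own scale in each panel) in the 3 control libraries (grey) and the 3 Sox9 KO libraries (red) for 12 actin-binding protein genes, with the mean and SD as bars (n = 3). The top row shows members called higher in KO and the bottom row members called lower, and in all 12 the groups do not overlap, although Flnc varied from 468 to 1187 among the control libraries.

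Profilins carry monomeric actin to growing filament ends, and Pfn1 and Pfn2 are the broadly used and the neural form. Pfn1 had 2620.2, 2959.9 and 2649.6 normalized counts in control and 4809.8, 3825 and 4255 in KO (log2 fold change 0.64, SE 0.11, limma adjusted p = 3.63e-04). Pfn2 had 1600.2, 1871 and 1710.2 in control and 263, 256 and 313 in KO (log2 fold change -2.64, SE 0.13, limma adjusted p = 6.07e-08). Pfn4, a testis profilin at a lower level, had 229, 204 and 207 in control and 31.8, 10.3 and 18.2 in KO (log2 fold change -3.48, SE 0.39, limma adjusted p = 2.14e-05), and its locus overlaps Fam228b. All 3 tested profilins were thus called, 1 higher and 2 lower, and the fall of Pfn2 was larger than the rise of Pfn1. The Pfn1 call was lost, with the same direction, under quantile normalization, at the same total with or without Rn45s, and without KO replicate 1, where its log2 fold change was 0.56.

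The windows of 250 bases before the RefSeq starts of Pfn1 and Pfn2 are shown because this pair had the largest difference in ratio after Myo1f and Myo1d among the 10 paralog pairs compared further on. They lie on the minus strands at chr11:70654651-70654900 and chr3:57847758-57848007 in GRCm38.p6 and are written 5′ to 3′ with CG dinucleotides in capitals.
Pfn1: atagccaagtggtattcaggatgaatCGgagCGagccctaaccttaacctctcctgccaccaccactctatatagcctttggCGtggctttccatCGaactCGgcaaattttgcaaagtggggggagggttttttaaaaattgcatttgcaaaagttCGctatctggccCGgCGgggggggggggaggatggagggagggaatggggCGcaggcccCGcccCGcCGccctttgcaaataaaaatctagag
Pfn2: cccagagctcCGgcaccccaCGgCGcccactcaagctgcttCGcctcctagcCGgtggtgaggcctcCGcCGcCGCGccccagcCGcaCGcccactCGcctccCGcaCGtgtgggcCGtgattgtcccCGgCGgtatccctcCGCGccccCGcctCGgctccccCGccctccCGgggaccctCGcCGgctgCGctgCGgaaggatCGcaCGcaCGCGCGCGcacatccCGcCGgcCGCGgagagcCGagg
The Pfn2 window abuts its locus, while the Pfn1 window lies inside its annotated locus, chr11:70651844-70656799, before an internal start. The Pfn2 window holds 38 CG dinucleotides and the Pfn1 window 12. Such a contrast did not run through the members, since the median was 14 over the 32 windows of members called higher and 13.5 over the 24 windows of members called lower. RefSeq gave windows for 56 of the 65 members.

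Serum response factor, a regulator of many actin genes, binds the CArG box, and this motif was looked for on both strands of the same 250-base windows. It was found in 2 of the 32 windows of members called higher, those of Arpc4 and Myo1e, and in 0 of 24 of members called lower, beside 1.47% of all promoters. The letters AACAAT, the core that Sox proteins bind, were in 1 of 74 member windows, beside 9.42% of all promoters. GAGGAA, a sequence bound by ETS factors such as PU.1 of macrophages, was in 5 of 32 windows of members called higher and 4 of 24 of those called lower, beside 23.3% of all promoters. These are matches of letters in a short window and say nothing of binding. Member windows also held more CG dinucleotides, a median of 13.5 beside 6 in all promoters. How far this base content bears on the matches was not tested.

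Cofilins sever and depolymerize filaments. Cfl1, the general form and the cofilin with the higher level, had 11711, 14344 and 13288 normalized counts in control and 18659.5, 15941 and 17212 in KO. All KO libraries lay above all control libraries, with a log2 fold change of 0.40 (SE 0.10) that did not reach 1.5-fold (limma adjusted p = 0.00709), and the sign turned under quantile normalization, to -0.18. Cfl2, the cofilin known from muscle, had 1913, 2332 and 1973 in control and 763, 807 and 1003 in KO (log2 fold change -1.28, SE 0.13, limma adjusted p = 1.15e-05).

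The 3 plastins, which bundle filaments into tight parallel arrays, divided by paralog. Lcp1, or L-plastin of leukocytes, had the highest mean normalized count of all 65 members, not corrected for length, with 8955, 10019 and 9670.1 normalized counts in control and 34511, 33206 and 32472 in KO (log2 fold change 1.81). Pls3, or T-plastin, had 2229, 1929 and 1988 in control and 835, 783 and 905 in KO (log2 fold change -1.28, SE 0.11, limma adjusted p = 2.36e-06). Pls1, the plastin of microvilli and stereocilia, had 227, 549 and 355 in control and 72.5, 56.5 and 137 in KO (log2 fold change -2.09, SE 0.38, limma adjusted p = 7.06e-04), with a 2.42-fold range among the libraries of each group.

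Alpha-actinins crosslink filaments, and none of the 4 was called higher. Actn4, the non-muscle form with by far the highest level, had 2961, 3471 and 3411 normalized counts in control and 2151, 2466 and 2177 in KO. It was lower in every KO library but under 1.5-fold (log2 fold change -0.53, SE 0.10, limma adjusted p = 9.55e-04), and it passed as lower under quantile normalization, at the same total with or without Rn45s, without control replicate 1 (-0.61) and without KO replicate 2 (-0.60). Actn1, the other non-muscle form, had 178, 219.5 and 194 in control and 123, 225 and 112 in KO (log2 fold change -0.43, SE 0.27, limma adjusted p = 0.196). Its groups overlapped because KO replicate 2 lay above all control libraries, and without that library its log2 fold change was -0.74 and it was called lower. Its sign turned, to 0.20, under quantile normalization.

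The sarcomeric forms stood far lower in level and were called lower. Actn2 had 35.1, 39.9 and 86.7 normalized counts in control and 12.9, 11.1 and 6.08 in KO, the last of these standing for 4 reads (log2 fold change -2.26, SE 0.49, limma adjusted p = 0.00224). Actn3 had 59.9, 44.0 and 91.4 in control and 4.96, 1.18 and 3.04 in KO (log2 fold change -4.08, SE 0.53, limma adjusted p = 6.98e-05), where the KO values stand for 2 to 5 reads in a library.

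Filamins crosslink filaments into gels and tie them to membrane proteins. Flna, the filamin with the highest level, had 1647, 2339 and 2275 normalized counts in control and 2206, 2339 and 2206 in KO, with groups that overlapped (log2 fold change 0.13, SE 0.13, limma adjusted p = 0.432). Its sign turned under quantile normalization, at the same total with or without Rn45s, and without control replicate 1 (-0.0361). Flnc, the filamin of muscle, showed the largest fall of any member, with 468, 923 and 1187 in control and 22.8, 39.9 and 25.8 in KO (log2 fold change -4.75, SE 0.35, limma adjusted p = 1.00e-06). The control libraries differed 2.54-fold in Flnc, and the lowest of them was still 11.7 times the highest KO library.

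Coronins remodel networks made by Arp2/3, and 4 of the 5 rose. Coro1a, the coronin of blood cells, had 1089, 1308 and 1187 normalized counts in control and 4070.2, 3086 and 3082 in KO (log2 fold change 1.51, SE 0.13, limma adjusted p = 3.00e-06). Coro1b, with the highest mean normalized count of the subfamily, had 1511, 1394 and 1247 in control and 4046, 3712 and 3187 in KO (log2 fold change 1.40, SE 0.12, limma adjusted p = 2.48e-06), and its locus shares a strand with Ptprcap. All 3 KO libraries were above all controls in both genes. Coro1c, with 1293, 1594 and 1611 in control and 2691, 2737 and 2615 in KO, rose less (log2 fold change 0.85, SE 0.11, limma adjusted p = 5.57e-05) and lost the call at the same total without Rn45s. Coro2a, at a lower level, rose by 1.27 on the log2 scale.

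Coro2b, a coronin known from the nervous system, was the exception. It had 1163, 973 and 1010.4 normalized counts in control and 74.5, 150.0 and 120.0 in KO (log2 fold change -3.23, SE 0.23, limma adjusted p = 9.76e-07). Coro2a and Coro2b thus stood on opposite sides, with control means of 333 and 1049 and KO means of 799 and 115.

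Gelsolin and CapG cut or cap filament ends in a calcium-dependent way. Gsn, the severing member, had 815, 886 and 865 normalized counts in control and 284, 426 and 398 in KO (log2 fold change -1.23, SE 0.16, limma adjusted p = 7.57e-05). Capg, a capping protein of macrophages, had 159, 290.4 and 257 in control and 307, 297 and 375 in KO (log2 fold change 0.51, SE 0.23, limma adjusted p = 0.0815). Capg was not called, although all KO libraries were above all control libraries, and it passed as higher under quantile normalization.

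Of the 4 tropomyosins, which coat filaments and so set their use, 1 rose, 1 fell and 2 were not called. Tpm3, the highest of them, had 5647, 6433 and 6829.8 normalized counts in control and 14703, 13673 and 14215 in KO (log2 fold change 1.18, SE 0.09, limma adjusted p = 2.02e-06). Tpm1 had 1211, 1174 and 1346 in control and 459, 526 and 514 in KO (log2 fold change -1.32, SE 0.11, limma adjusted p = 3.67e-06). Tpm4 had 1477, 2173 and 2268 in control and 1797, 1739 and 2244 in KO. Tpm2, far lower, had 64.3, 64.7 and 99.3 in control and 80.4, 69.5 and 57.7 in KO, and in both Tpm4 and Tpm2 the groups overlapped. Products of different promoters and splice forms within each tropomyosin gene were counted together.

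The unconventional myosins were the largest subfamily, with 22 tested members, 8 higher, 8 lower and 6 not called, and a median log2 fold change of -0.25 that turned to 0.21 under quantile normalization. Class I myosins link membranes to actin, and they went both ways. Myo1f, the motor with the largest rise, had 1789, 1779 and 2005 normalized counts in control and 7179.5, 7905 and 7037 in KO (log2 fold change 1.99, SE 0.09, limma adjusted p = 4.94e-08). Myo1g had 249.9, 271 and 273 in control and 996, 983 and 849 in KO (log2 fold change 1.83, SE 0.13, limma adjusted p = 7.59e-07). Both are known from immune cells, and neither overlapped between the groups.

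Among the more widely used class I motors, Myo1c had 569, 723 and 569 normalized counts in control and 2043, 1830.1 and 1727 in KO (log2 fold change 1.59, SE 0.13, limma adjusted p = 1.88e-06). Myo1e rose by 0.79 (SE 0.09), a call lost at the same total with or without Rn45s. In the other direction, Myo1d had 177, 471 and 322 in control and 71.5, 118 and 109 in KO (log2 fold change -1.61, SE 0.34, limma adjusted p = 0.00214), with a 2.67-fold range among the controls. The groups did not overlap in Myo1d.

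Cargo-carrying and signalling myosins were called in both directions. Myo5a, a vesicle motor and the myosin with the highest mean normalized count, not corrected for length, had 6656, 6717 and 6472 normalized counts in control and 15308, 16576 and 17018 in KO (log2 fold change 1.30, SE 0.08, limma adjusted p = 3.99e-07). Myo6, which walks toward the pointed end of filaments, had 7931, 7959 and 8378 in control and 1173, 1559 and 1522 in KO (log2 fold change -2.52, SE 0.12, limma adjusted p = 4.73e-08). In control libraries Myo6 stood above Myo5a in normalized counts per kb of transcript, at 1020.4 against 565, and in KO far below it, at 179 against 1393. Myo9a and Myo9b, signalling myosins, rose by 1.03 and 1.27, and Myo7a by 1.57.

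Myo10, the motor of filopodial tips, fell with Myo6. It had 4155, 4217 and 3860.2 normalized counts in control and 655, 869.7 and 650.2 in KO (log2 fold change -2.50, SE 0.12, limma adjusted p = 7.39e-08). Myo16, a myosin of the nervous system with the largest fall in the subfamily, had 858, 751 and 996 in control and 52.6, 48.2 and 45.6 in KO (log2 fold change -4.12, SE 0.18, limma adjusted p = 4.08e-08). Myo19, the motor bound to mitochondria, fell by 1.38 on the log2 scale.

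Myo3b and Myo18b were low in every library, with at most 45.7 and 94.6 normalized counts, and were called lower. Myo3b had 35.1, 24.1 and 45.7 in control and 3.97, 0.395 and 1.52 in KO (log2 fold change -3.75, SE 0.60, limma adjusted p = 3.29e-04), the KO values standing for 1 to 4 reads in a library. Myo18b had 93.5, 59.2 and 94.6 in control and 8.94, 52.9 and 15.2 in KO (log2 fold change -1.99, SE 0.57, limma adjusted p = 0.0112), and its call was lost under quantile normalization and when control replicate 1, control replicate 3 or KO replicate 3 was left out. Myo18a, at 2028, 2096 and 2172 in control and 1577, 1789 and 1439 in KO, was lower in every KO library but under 1.5-fold (log2 fold change -0.40, SE 0.10, limma adjusted p = 0.00716), and passed at the same total with or without Rn45s. Myo1a, Myo1h, Myo5b, Myo5c and Myo15 had no library above 71.6 normalized counts and were not called.

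Ratios between paralogs within 1 library do not depend on the single factor that scales each library, although quantile normalization would change them, and were taken per kb of the longest annotated transcript. In 9 of 10 pairs the ratio was higher in every KO library than in every control library. The pairs and the order of genes in each were chosen with earlier results of these data known. Their shared direction is therefore no result in itself. Of all single genes tested, 67.2% did not overlap between the groups. The ratio of Myo1f to Myo1d moved most, from 14.1, 5.27 and 8.71 in control to 140.4, 93.3 and 89.9 in KO. That of Pfn1 to Pfn2 went from 1.92, 1.86 and 1.82 to 21.4, 17.5 and 16.0, a log2 difference of 3.28. These differences were larger than the spread among the libraries of a group, and they are given as a description with no test.

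Lcp1 to Pls3 rose from 3.39, 4.38 and 4.11 in control to 34.9, 35.8 and 30.3 in KO, and Tpm3 to Tpm1 from 5.67, 6.67 and 6.18 to 39.0, 31.7 and 33.7. Cfl1 to Cfl2 went from 7.65, 7.68 and 8.41 to 30.5, 24.7 and 21.4, and Arpc1b to Arpc1a from 1.35, 1.69 and 1.96 to 4.85, 4.90 and 5.52. In each of these the more abundant paralog gained further on the other. Fmnl1 to Fmnl2, Capg to Gsn and Coro1a to Coro1c rose by 1.88, 1.74 and 0.66 on the log2 scale. The exception was Actn1 to Actn4, for which the groups overlapped. In the cofilins and the Arp2/3 subunits the ratio thus parted the groups even where 1 member of the pair was not called.

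**Figure D3:**
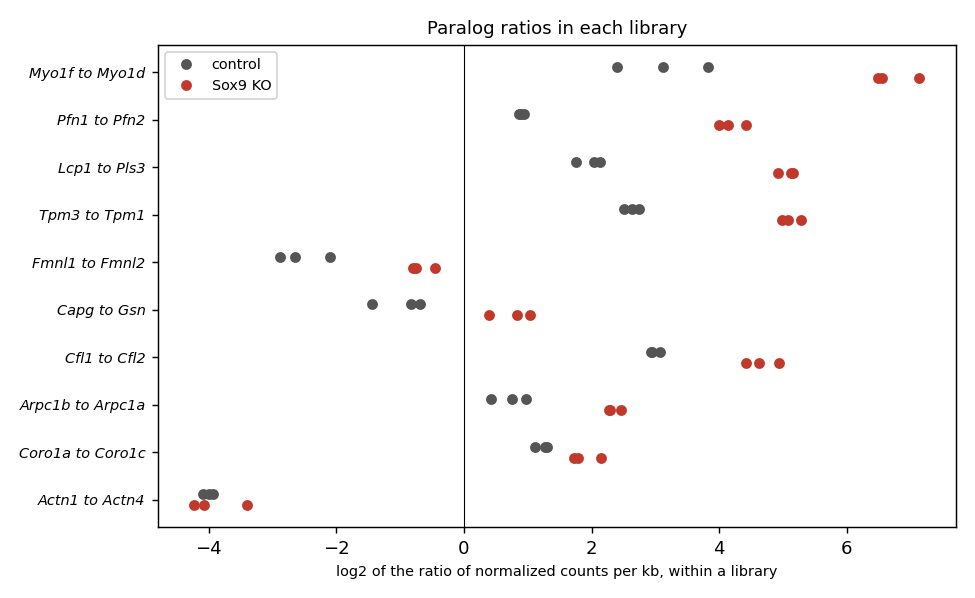
Log2 of the ratio of normalized counts per kb of transcript between 2 paralogs (horizontal axis), computed within each library, for 10 pairs, with control libraries in grey and Sox9 KO libraries in red. In 9 pairs all KO points lie to the right of all control points, and Actn1 to Actn4 overlaps. The order of genes in each pair was chosen with earlier results of these data known.

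Set as a share of each subfamily's summed normalized counts per kb, the makeup shifted in most subfamilies. Pfn1 took 63.7% ± 0.522 (SD, n = 3) of the profilins in control and 94.6% ± 0.680 in KO, while Pfn2 took 34.2% ± 0.683 and 5.24% ± 0.735. Lcp1 took 77.2% ± 1.29 of the plastins in control and 96.8% ± 0.389 in KO. Tpm3 took 65.7% ± 1.59 of the tropomyosins and 84.4% ± 1.55. In each of these the leading member was the same in both groups and came to hold more of the sum.

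On this per-kb scale the formins changed their leading member. Fmnl2 took 39.2% ± 3.73 of the formins in control and 27.8% ± 2.23 in KO, while Fmnl3 went from 8.70% ± 0.539 to 32.2% ± 2.17. Fmn2 and Daam2 together lost most of their share, from 19.5% ± 3.55 and 14.6% ± 0.373 to 1.52% ± 0.173 and 0.988% ± 0.221. Fmnl3 thus took the lead in KO per kb, while in normalized counts Fmnl2 kept the higher KO mean, 6266 against 5829. Among the myosins, Myo6 led in control with 22.4% ± 0.399 and Myo1f in KO with 27.8% ± 1.01. Not corrected for length, Myo5a stood above Myo1f in KO, with means of 16300.5 and 7373.7. Gsn and Capg also exchanged places per kb, with Capg at 33.8% ± 5.97 in control and 62.7% ± 5.29 in KO. In normalized counts Gsn kept the higher KO mean, 369.3 against 326.2 for Capg, which was not called.

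The Arp2/3 subunits kept their order at the top: Arpc2 took 42.7% ± 1.98 in control and 39.9% ± 0.466 in KO. Arpc1a went from 7.36% ± 0.693 to 3.03% ± 0.198, and Arpc5l from 2.15% ± 0.0849 to 0.830% ± 0.0467. Actn4 held 90.1% ± 1.27 of the alpha-actinins in control and 92.9% ± 1.86 in KO, a difference that the SDs span. Shares rest on transcript lengths, which are the same in every library. A wrong length would change the level of a share in both groups and could change which member leads.

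**Figure D4:**
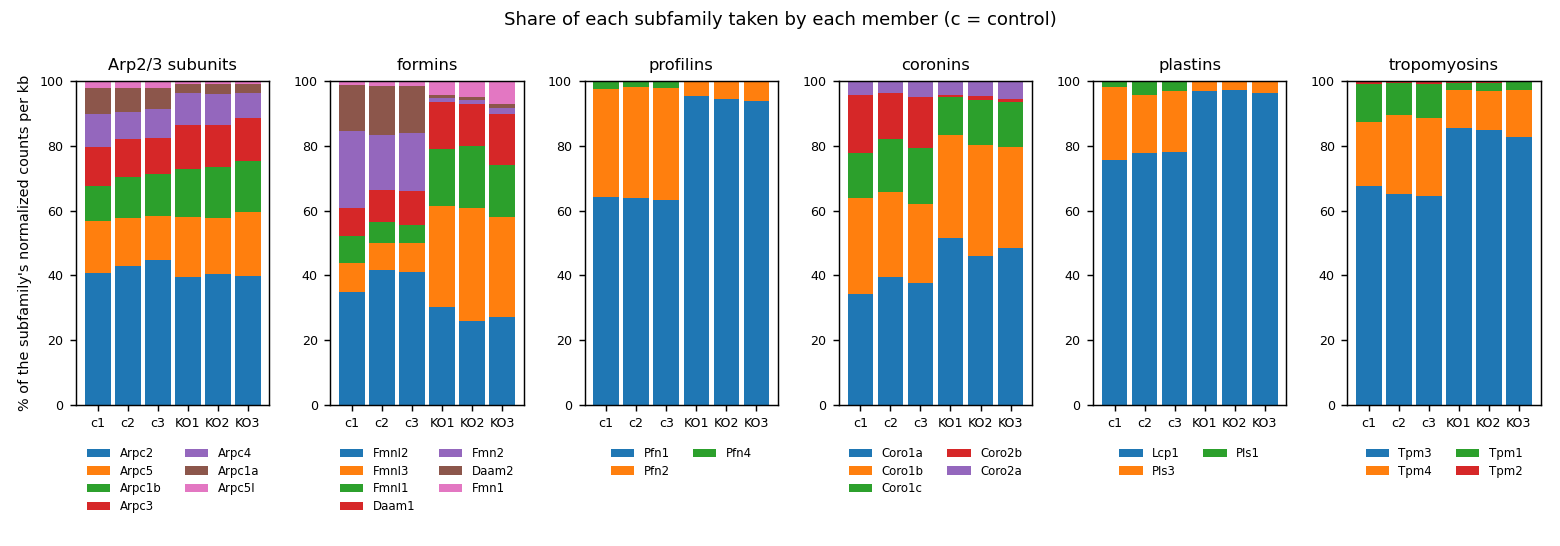
Share of each member in the summed normalized counts per kb of its subfamily, in percent (vertical axis), for 6 subfamilies, with 1 bar for each of the 3 control libraries (c1 to c3) and the 3 Sox9 KO libraries (KO1 to KO3). Lcp1, Pfn1 and Tpm3 fill more of the KO bars than of the control bars, Fmnl3 widens from 8.70% ± 0.539 to 32.2% ± 2.17 of the formins.

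The members were also read against the marker sums. The sum of the microglia and macrophage markers was 3.45-fold higher in KO and that of the astrocyte markers 12.8-fold lower, and these moved with the calls. Of the 25 members called higher, 16 were lower in every KO library than in every control library when divided by the microglia and macrophage sum, 8 overlapped and 1, Fmnl3, was higher in every KO library. Lcp1, Myo1f, Myo1g, Coro1a, Fmnl1, Fmn1, Myo1c and Arpc1b were the 8 that overlapped. Their log2 differences relative to that sum ran from -0.50 for Arpc1b to 0.26 for Fmn1. A member that rose clearly less than the sum must fall when divided by it, so these counts restate the fold changes above. The same division was not made for all 4090 genes called higher.

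Of the 21 members called lower, 12 were higher in every KO library than in every control library when divided by the astrocyte sum, 8 overlapped and 1, Flnc, was lower in every KO library. The sum rests heavily on Slc1a2, with a control mean of 258895 out of 520393 and a log2 fold change of -4.30. Single astrocyte markers ran from -5.25 for Fgfr3 to -2.72 for Slc1a3, so nearness to the sum is not nearness to each marker. Members nearest to the astrocyte sum included Daam2 at -0.06, Pfn4 at 0.13 and Fmn2 at 0.18 on the log2 scale, and those that fell much less than it included Gsn at 2.45 and Cfl2 at 2.40. A member that fell clearly less than the astrocyte sum must rise when divided by it, so these counts also restate fold changes. All 5299 genes called lower were not divided in this way for comparison. These ratios were chosen after the values were seen, and the part of other cell types in the calls was not tested.

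Outside the subfamilies, 84 other genes of the actin system were listed, from actin itself to the regulators upstream, and 83 were tested. Of these, 39 were higher in KO, 26 were lower and 18 were not called, which is 47.0% higher and 31.3% lower, beside 22.2% and 28.8% of all genes tested. Their median log2 fold change was 0.58, beside -0.07 for all genes tested. Some relatives in the list were called in opposite directions and others in the same one, and those named here were picked after their values were seen. Among those that moved together, Rock1 and Rock2, kinases that act on myosin, rose by 1.02 and 1.12, the filament-end caps Capza1 and Capza2 by 0.94 and 1.09, and Pak1 and Pak2 by 0.84 and 0.73, although Pak3 fell by 2.47 on the log2 scale.

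Actb, cytoplasmic beta-actin, had 85041, 99925 and 104159.9 normalized counts in control and 217422, 185507 and 169505 in KO (log2 fold change 0.98, SE 0.15, limma adjusted p = 1.98e-04), while Actg1, gamma-actin, was not called (0.54). Actr2 and Actr3, which give Arp2/3 its name, rose by 1.19 and 1.08, and the paralog Actr3b fell by 2.73 on the log2 scale. In the WAVE complex, which switches Arp2/3 on, Nckap1l had 7812, 7234 and 7333 in control and 29628, 28789 and 25751 in KO, and Nckap1 had 9312, 9609.8 and 9209.9 in control and 1009, 1495 and 1451 in KO. These subunits gave log2 fold changes of 1.91 (SE 0.09) and -2.85 (SE 0.14).

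Wasf2 rose by 1.20 while Wasf3 and Wasf1 had log2 fold changes of -4.67 and -2.74, and Cyfip1 rose by 0.96 while Cyfip2 was at -2.07. The cortactin family divided in the same manner, with Hcls1 of blood cells at 1.84 and Cttn at -4.03. Among proteins that speed up filament growth, Vasp and Evl rose by 1.19 and 1.32, and Enah was at -3.14. All genes named in this paragraph were called.

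Proteins that tie actin to the membrane gave 1.503 for Msn (moesin), -2.60 for Ezr (ezrin, found in the fine processes of astrocytes) and 0.07 for Rdx (radixin), the last not called. Ezr had 3672, 4268 and 3821 normalized counts in control and 676, 531 and 751 in KO. Cap1 and Cap2, which recycle actin monomers, were at 1.20 and -4.41, and the pointed-end caps Tmod3 and Tmod2 at 1.06 and -3.06. Rac2, the Rac of blood cells, rose by 1.59 and Rac3 fell by 1.46 on the log2 scale, while Rac1 was not called (0.36).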

How the data were processed

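The deposited values, 1 per gene and library, are named RPM, but they are a signal that the authors made by dividing reads per gene by 1 size factor per library: reads were mapped to mm10 with STAR 2.5.0a and normalized with DESeq2 1.20.0. In each library 100% of values were whole multiples of the smallest step within 0.01 read, so reads were recovered; strandedness and the annotation used are not stated by the sources. Groups came from the sample labels. Genes averaging 1 or more were tested by limma (3.58.1, R 4.3.3) after adding 1 and taking log2, with a variance trend and Benjamini-Hochberg adjustment over all 18413 genes tested; fold changes on this scale understate those of low genes. A call needs an adjusted p under 0.05 and 1.5-fold. Each library is 1 sample. The limma p-values set the difference between groups against the spread among samples within groups, moderated by the trend over all genes. The recovered reads were also tested with edgeR 4.0.16 and DESeq2 1.42.0. Scripts were tested on simulated data. The members and lists were chosen with earlier results of these data known. Genes named were, in each subfamily, the member with the highest mean, the largest rise and the largest fall among those called, and both members of each paralog pair; others were named for their role after their values were seen, and 2 tested members and 1 of the paralog pairs are counted or computed but not reported here. Coordinates and promoter windows are from RefSeq (GRCm38.p6).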

Additional observations from a re-analysis of the deposited data

How the results depend on the processing

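The counts of 25 members called higher and 21 called lower stayed within 18 to 26 and 20 to 27 under all alternatives, which were other pseudocounts, filters, scalings, thresholds, tools and the loss of single libraries. The extremes were 18 and 27 at the same total without Rn45s, 18 and 20 with a 2-fold threshold, and 26 and 20 without control replicate 3; edgeR and DESeq2 on the recovered reads gave 25 and 21. With the replicate number as a replicate block the counts were again 25 and 21. Same-numbered libraries deviated with correlations of -0.051, -0.013 and -0.013, so the numbers were not taken as pairs.

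The medians of the members moved with the scaling, as did that of all genes tested, by 0.26 under quantile normalization, -0.23 at the same total and -0.31 at the same total without Rn45s. Under quantile normalization they were 0.21 for all tested members, 0.21 for myosins, 0.28 for tropomyosins, -1.10 for alpha-actinins, 0.69 for Arp2/3 subunits, 0.53 for formins, -0.75 for cofilins, -2.46 for profilins and -0.0252 for gelsolin and CapG. At the same total they were -0.22 for all tested members, -0.41 for myosins, -0.31 for tropomyosins, 0.66 for Arp2/3 subunits, -0.12 for filamins, 0.49 for formins, -0.68 for cofilins, -2.88 for profilins, 1.02 for coronins, -1.53 for plastins and -0.60 for gelsolin and CapG. At the same total without Rn45s they were -0.31 for all tested members, -0.49 for myosins, -0.39 for tropomyosins, -1.71 for alpha-actinins, 0.58 for Arp2/3 subunits, -0.20 for filamins, 0.40 for formins, -0.77 for cofilins, -2.96 for profilins, 0.94 for coronins, -1.61 for plastins and -0.69 for gelsolin and CapG. The median of all tested members was 0.0152 with a pseudocount of 5, 0.0888 with edgeR and 0.0358 with DESeq2. That of the myosins was -0.54 with a pseudocount of 0.1, -0.40 with a minimum mean of 10, -0.0552 with edgeR and -0.11 with DESeq2. The cause of these moves was not tested.

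Leaving out single libraries gave medians of -0.13 to 0.0912 for all tested members (0.0912 without control replicate 3, 0.0742 without KO replicate 2), -0.57 to -0.0727 for myosins (-0.0727 without control replicate 1, -0.57 without control replicate 3, -0.47 without KO replicate 3), -0.22 to 0.0912 for tropomyosins (-0.22 without control replicate 1, 0.0912 without control replicate 3), 0.65 to 0.80 for formins and 1.17 to 1.32 for coronins.

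Among 561 combinations of the 33 members named by rule with an alternative, 532 kept direction and call, 12 lost the call, 11 gained one and 6 turned sign. The sign turned for Flna (-0.0207 under quantile normalization, -0.12 at the same total, -0.20 without Rn45s and -0.0361 to 0.2167 over the loss of single libraries, the lowest without control replicate 1), Cfl1 (-0.18 under quantile normalization) and Actn1 (0.20 under quantile normalization). Depth limits Actn2, Actn3, Myo3b, Myo1a, Myo1h and Myo5c, where single libraries held 0 to 5 reads.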
